A study of Xiphophorus maculatus with 32 samples.

Results

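The 100 most abundant transcripts of *Xiphophorus maculatus* skin were followed through 12 light exposures, by the share of all counts that they took and by the change of each transcript against the controls of its own experiment. They were chosen as the 100 rows with the highest mean CPM (a transcript's count scaled to the total of its library) over 4 unexposed control libraries. They are 100 of the 20218 transcripts in the table, or 0.495% of its rows. The data are RNA-Seq counts of skin from single mature male *X. maculatus* Jp 163 B, aged 10 to 11 months and from generation 105 of sibling inbreeding, held in the dark for 14 h before exposure and for 6 h after it. FL, the light of 4100 K cool white fluorescent lamps, was given at 35 kJ/m2 over about 40 min. The 50 nm wavebands were 300–350 nm at 7.3 kJ/m2, 350–400 nm at 18.6 kJ/m2, 400–450 nm at 21.6 kJ/m2, 450–500 nm at 21.2 kJ/m2 and 500–550 nm at 17.4 kJ/m2, with 550–600 nm at 13.8 kJ/m2. The 10 nm wavebands divided the range from 500 to 550 nm into 5 steps. The labels give no dose for these, but the study's methods list a dose for each, all close to the 17.4 kJ/m2 of 500–550 nm. Each exposure had 2 fish, and the controls were 2 unexposed fish for the 50 nm experiment and 2 for the 10 nm experiment. The columns labelled as FL controls repeat the values of the 50 nm controls and were counted 1 time, so FL and the 50 nm wavebands were set against the same 2 fish. The study's methods describe controls both as fish taken from the dark without handling and as fish treated alike but unexposed, and the labels do not say which of these the control libraries are, so the part of handling was not tested. All fish were males of 1 inbred strain sampled at 1 time after light, and 2 fish a group give little information on the spread within a group.

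Fish skin holds a living, multilayered epidermis over a collagen-rich dermis with scales and pigment cells. In the mRNA of such a tissue a small set of transcripts takes a large part of all reads, commonly those for the ribosome, the cytoskeleton, the extracellular matrix and chaperones. As the reads of a library are shared out among its transcripts, a few very abundant transcripts can also move the CPM of the rest. Of the 100 members, 1 could be named from the sources used here. This is HSP90AB1, the constitutive cytosolic form of the HSP90 chaperone, which helps client proteins such as kinases and steroid receptors to fold. The other 99 carry an Ensembl transcript identifier alone, so members could not be grouped by function, and the marker genes of epidermis, dermis, muscle, blood or pigment cells could not be looked up to check the tissue. Since skin was sequenced in bulk, fewer cells of a type and less RNA per cell cannot be told apart.

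Depth ran from 12835091 to 41221463 counts per library over the 28 distinct libraries, and its median was 16067180. No member was at 0 in any library, and all 100 passed the low-count filter of each fit, so none was lost before testing. At this depth the counting error of a share was small. The 95% Wilson interval of the members' share was at most 0.0250 percentage points to either side, and it covers counting error only.

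The members took between 22.9% and 32.4% of the counts of a library, with a median of 26.2%. The first 10 alone took between 6.70% and 12.7%. After FL the members took 28.4% and 32.4% of counts in the 2 fish, against 27.5% and 25.1% in the 50 nm controls. Both FL fish lay above both controls, by 4.08 percentage points on average, and 3.44 of these points came from ranks 11 to 100. After 400–450 nm the share was 24.1% and 23.5%, and after 450–500 nm it was 24.6% and 23.7%. In these wavebands both fish lay below the 50 nm controls, by 2.49 and 2.11 points on average. Over the 100 rows highest in the 10 nm controls, which leave the 50 nm controls out of the choice, this separation was lost. The share was then 23.2% and 23.2% after 400–450 nm and 24.3% and 22.9% after 450–500 nm, against 25.2% and 22.8% in the 50 nm controls. The FL fish, at 26.7% and 30.5%, stayed above both. Over the members themselves the other 50 nm wavebands overlapped the controls, with 25.7% and 25.6% after 300–350 nm, 24.0% and 26.2% after 350–400 nm, 26.4% and 26.2% after 500–550 nm, and 27.7% and 26.3% after 550–600 nm. Over the rows chosen by the 10 nm controls, the share was 25.9% and 25.9% after 500–550 nm and 27.1% and 26.3% after 550–600 nm. These fish then lay above both 50 nm controls, as the FL fish did.

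After the 10 nm wavebands the members took 26.4% and 26.3% after 500–510 nm, 24.0% and 28.4% after 510–520 nm, 22.9% and 29.6% after 520–530 nm, 25.8% and 25.5% after 530–540 nm and 26.1% and 27.2% after 540–550 nm, against 30.2% and 28.6% in the 10 nm controls. Both fish lay below both controls in every 10 nm waveband except 520–530 nm, where fish 2 lay between them. Here the first 10 members held most of the difference, with a mean share lower by 2.06 to 3.70 points over the 5 wavebands, while the change of ranks 11 to 100 lay between -1.27 and 0.44 points. The pairs of fish after 510–520 nm and after 520–530 nm stood farther apart than the 10 nm controls did, and in both pairs fish 1 was the lower.

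**Figure D1:**
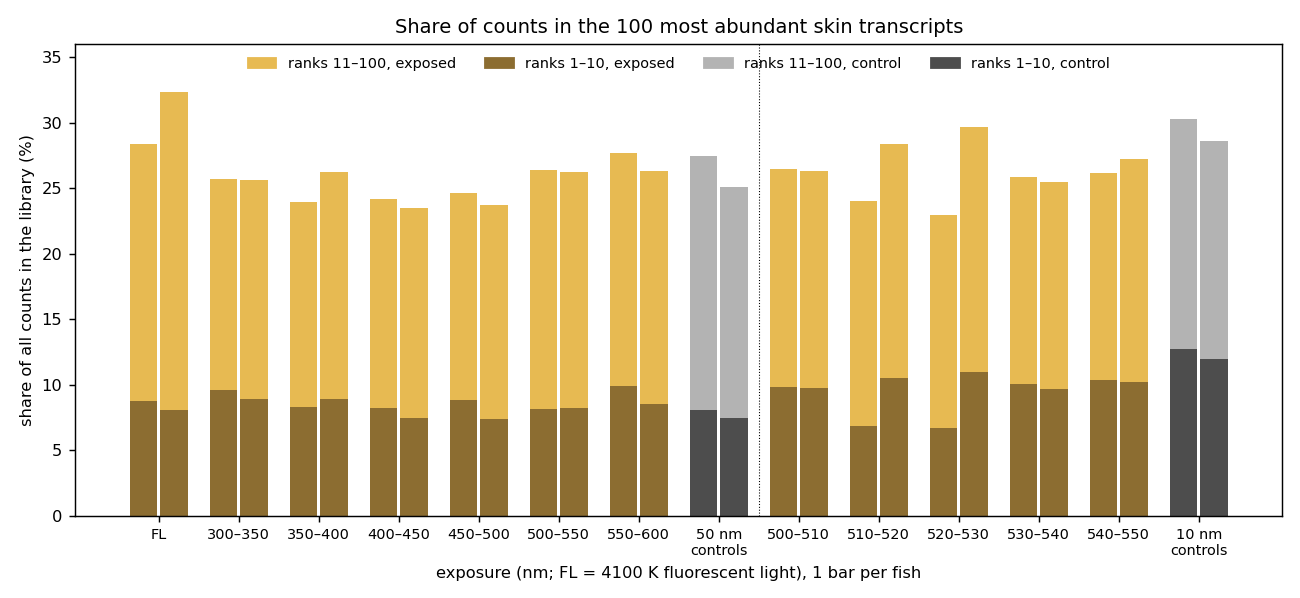
Share of all counts (%, y axis) in the 10 most abundant members (dark) and in ranks 11 to 100 (light) for each fish, with exposed groups in gold, control groups in grey and a dotted line between the experiments. FL fish 2 has the highest bar at 32.4%, and fish 1 after 520–530 nm the lowest at 22.9%.

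These shares are a description, because the control values chose the members, and rows that were by chance high in the controls were favoured. The share was therefore also taken over the 100 rows with the highest mean CPM in the controls of the other experiment, so that neither side of a comparison had taken part in the choice. Each exposed side here pools fish of all the wavebands of an experiment. Its SD therefore also holds differences between wavebands, and the test speaks to no single waveband. Over the rows chosen by the 10 nm controls, the 12 libraries of the 50 nm wavebands had a mean share of 24.8% ± 1.38 (SD, n = 12), against 24.0% ± 1.65 (SD, n = 2) in the 50 nm controls. The difference of 0.78 points did not pass a two-sided exact permutation test (p = 0.440, adjusted over the 2 tests p = 0.440, smallest p possible 0.0220). Over the rows chosen by the 50 nm controls, the 10 libraries of the 10 nm wavebands had 25.8% ± 1.85 (SD, n = 10), against 28.7% ± 1.14 (SD, n = 2) in the 10 nm controls. This difference of -2.86 points did not pass the two-sided exact permutation test either (p = 0.0606, adjusted p = 0.121, smallest p possible 0.0303). The lists chosen by the controls of each experiment alone shared 80 of their 100 rows.

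The order of the members is an order of counts and not of molecules, since transcript lengths were not used. ENSXMAT00000001064 was first in all 28 libraries and took between 1.58% and 5.06% of their counts. It had 50608 and 44899 CPM in the 10 nm controls and 24746 and 22408 CPM in the 50 nm controls. ENSXMAT00000019098 was rank 2, with 22998 and 21453 CPM in the 10 nm controls and 10084 and 7715 CPM in the 50 nm controls. For both, the 10 nm controls lay above the 50 nm controls by more than the pair of fish of either group differed. ENSXMAT00000000986, rank 3, had 11275 and 12732 CPM in the 10 nm controls and 9366 and 9781 CPM in the 50 nm controls, a smaller gap. Ranks 4 to 9, held by ENSXMAT00000016361, ENSXMAT00000001013, ENSXMAT00000000191, ENSXMAT00000015235, ENSXMAT00000012678 and ENSXMAT00000018721, lay between 3520.3 and 7871 CPM in the 4 controls, and their ranges overlapped, so the order among them was not fixed by these fish.

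The last members were set apart from the first rows left out by very little. Ranks 96 to 100, ENSXMAT00000008064, ENSXMAT00000000305, ENSXMAT00000011834, ENSXMAT00000008747 and ENSXMAT00000009282, had mean control levels from 1220.3 down to 1204 CPM. The 5 rows just outside, ENSXMAT00000014575, ENSXMAT00000019410, ENSXMAT00000002355, ENSXMAT00000018351 and ENSXMAT00000000761, had 1203 down to 1188 CPM. A given library held between 79 and 95 of the 100 members among its own 100 highest rows. The lowest place of any member within a library was 2428, reached by a member in fish 1 after 540–550 nm.

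The control levels that chose the members are described here with no test. Of the 100 members, 31 were higher in both 10 nm controls than in both 50 nm controls and 42 were lower, against 29.4% and 41.4% of the 17800 transcripts with a count in all 4 controls. A mean at least 2-fold higher was found for 7 members and at least 2-fold lower for 4, against 5.76% and 9.97% of those transcripts, so the members stood near the rest of the table. The members with the widest ratio of highest to lowest control were ENSXMAT00000017624, ENSXMAT00000000703 and ENSXMAT00000000175. ENSXMAT00000017624 had 1072 and 1018 CPM in the 10 nm controls and 8835 and 8032 CPM in the 50 nm controls. The steadiest were ENSXMAT00000015045, ENSXMAT00000001612 and ENSXMAT00000014058, and ENSXMAT00000015045 had 2318 and 2139 CPM in the 10 nm controls and 2308 and 2152 CPM in the 50 nm controls. Each exposure was therefore set only against the controls of its own experiment. Over all 28 libraries the ratio of the highest to the lowest CPM of a member had a median of 1.99. It was under 2 for 51 members, at least 4 for 10 and at least 10 for 3.

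Change in each exposure was tested with edgeR's quasi-likelihood test over the whole table, on counts scaled by TMM, which sets libraries level by the bulk of their transcripts. A transcript was called when its Benjamini-Hochberg adjusted p was under 0.05 and its log2 fold change, exposed over control, was at least 1 in size. Of the 100 members, 86 stayed under 2-fold in all 12 exposures, and 52 of the 1200 comparisons of a member with its controls, or 4.33%, reached 2-fold. Of all transcripts tested, between 5.75% and 13.8% reached it in an exposure. In all, 3 calls were made. ENSXMAT00000008241 rose after 500–550 nm, where 1 member was called higher against 1.99% of all transcripts tested, and 4.69% of all transcripts were called in either direction. ENSXMAT00000017624 and ENSXMAT00000000703 fell after 550–600 nm, where 2 members were called lower against 3.17% of all transcripts, with 4.42% called in either direction. Since the control values chose the members, these counts are read against the share of all transcripts as a description. The FL and 50 nm comparisons share 2 control fish and the 10 nm comparisons share the other 2, so the exposures within an experiment are not separate evidence.

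**Figure D2:**
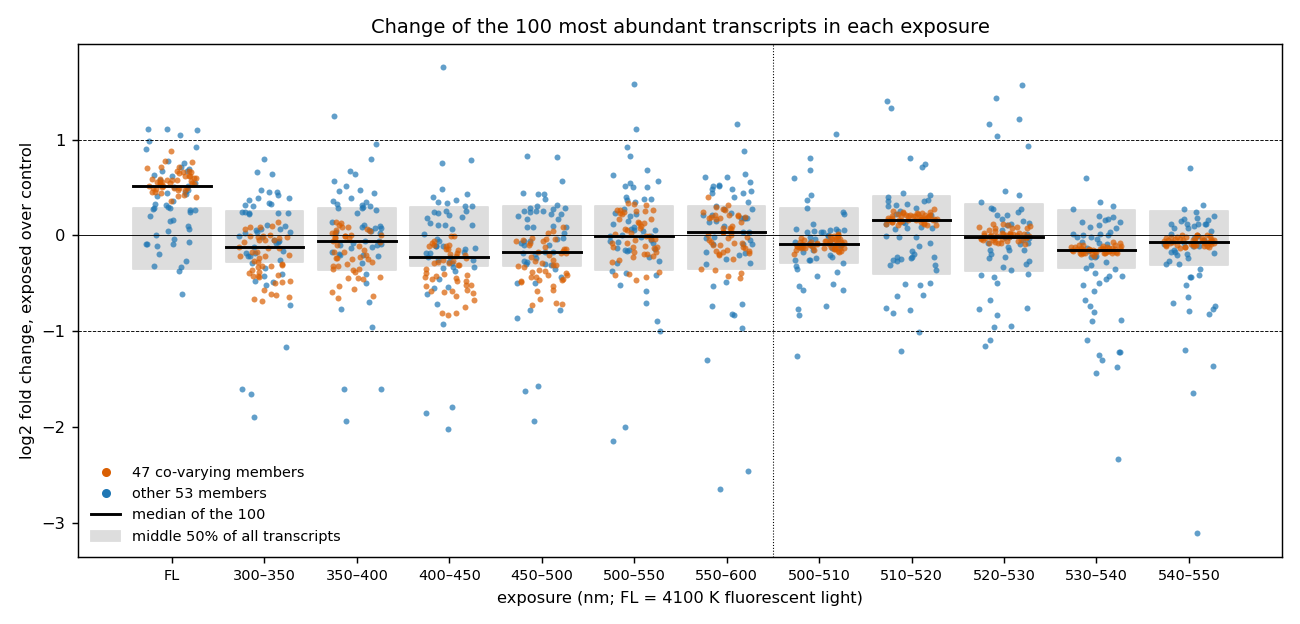
Log2 fold change, exposed over control (y axis), of each of the 100 members in the 12 exposures, with black bars for the members' median, grey boxes for the middle 50% of all transcripts tested and dashed lines at 2-fold. Orange points are the 47 members linked in 1 block by chained correlations, with medians near 0.55 after FL and near -0.35 after 400–450 nm.

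After FL most members had a positive log2 fold change. Their median log2 fold change was 0.51, against -0.02 over the 16513 transcripts tested, and 88 of 100 were positive. On the TMM-scaled counts, which are used for all such counts of members unless column totals are named, both FL fish lay above both controls at 75 members and below both at 4, against 27.6% and 28.2% of all transcripts. Calls by edgeR's quasi-likelihood test numbered 0 members and 0% of all transcripts. At an unadjusted p under 0.05 there were 10 members, against 16.8% of all transcripts, and DESeq2 called 3, against 3.04% of all rows. The size of this shift rested on FL fish 2 and on the scaling. Without fish 2 the median was 0.20 and without fish 1 it was 0.78, with 15 members called when fish 2 stood alone, against 15.2% of all transcripts. Scaling by column totals moved the median of all transcripts to -0.22 and the members' median to 0.29, and 62 members then lay above both controls and 11 below, against 15.7% and 42.4% of all transcripts. The FL fish differed from each other by a median of 0.586 log2 units at the members and 0.335 over all transcripts, against 0.206 and 0.173 for the controls. Over the 100 rows chosen by the 10 nm controls alone, which took no part in this comparison, 78 lay above both controls and 4 below.

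After the 4 shorter 50 nm wavebands more members lay below the controls than above them. After 300–350 nm both fish lay above both controls at 17 members and below at 46, against 27.4% and 28.7% of all transcripts, and the members' median was -0.12. After 350–400 nm these counts were 20 and 39, against 28.6% and 33.1%, with a median of -0.06. This median turned to 0.05 without control 1 and to 0.01 without fish 1, and it was 0.01 over the rows chosen by the 10 nm controls. After 400–450 nm they were 15 and 55, against 28% and 30.9%, with the lowest median of the 12 exposures at -0.22. After 450–500 nm they were 15 and 50, against 28.1% and 30.6%, with a median of -0.18. At longer wavelengths the counts above and below were closer to each other. After 500–550 nm 35 members lay above both controls and 27 below, against 30.3% and 34.3%, and after 550–600 nm 37 and 27, against 29.5% and 31.6%, with medians of -0.00 and 0.04. The median of all transcripts lay between -0.02 and 0.00 in all 6. Over the rows chosen by the 10 nm controls, 37, 31, 45 and 40 lay below both controls in the 4 shorter wavebands, from short to long. In the same order 21, 22, 16 and 19 lay above both. With these rows 45 lay above and 21 below after 500–550 nm, and 44 and 17 after 550–600 nm. The shares of all transcripts are those given above for each waveband, so the 31 below after 350–400 nm stood under its 33.1%.

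The members' differences after the 50 nm wavebands were mostly under 2-fold. No member was called at 2-fold after 300–350, 350–400, 400–450 or 450–500 nm, where 0.975%, 3.27%, 2.06% and 2.73% of all transcripts were, and DESeq2 also called 0 members in each, against 1.47%, 3.75%, 2.91% and 3.40% of all rows. Unadjusted p-values under 0.05 in the same edgeR test were met by 37, 33, 48 and 41 members, against 20.9%, 28.9%, 26.9% and 27.9% of all transcripts. At an adjusted p under 0.05 with no fold minimum, 0 members were higher and 8 lower after 300–350 nm, against 1.52% and 1.3% of all transcripts. After 350–400 nm 5 were higher and 9 lower, against 4.63% and 4.69%. After 400–450 nm 1 was higher and 20 lower, against 2.71% and 3.65%. After 450–500 nm 3 were higher and 14 lower, against 3.28% and 4.25%. After 500–550 nm 8 were higher and 6 lower, against 5.64% and 8.52%, and after 550–600 nm 9 were higher and 8 lower, against 5.05% and 8.41%. In all, 37 members passed in at least 1 of the 6 wavebands. Of these, 25 were lower each time, 12 were higher each time and 0 went both ways. No like count over all transcripts was taken. All 6 wavebands share the same 2 controls, so like directions across them are not separate evidence. As the 50 nm controls helped to choose the members, these numbers are a description only. The counts by waveband rested on 2 fish a group. In all 6 wavebands most of the lower calls were lost when 1 library was left out, except after 550–600 nm without fish 1. All higher calls after 350–400, 400–450 and 450–500 nm were lost without control 2, as were most of those after 500–550 and 550–600 nm. Over all transcripts the calls at 2-fold fell as well, again except after 550–600 nm without fish 1. As 1 fish then stands alone on a side, only the members' median log2 fold change is given. The order is without control 1, control 2, fish 1 and fish 2. The median was -0.03, -0.17, -0.12 and -0.11 after 300–350 nm and 0.05, -0.12, 0.01 and -0.10 after 350–400 nm. It was -0.12, -0.30, -0.18 and -0.29 after 400–450 nm and -0.08, -0.26, -0.12 and -0.20 after 450–500 nm. After 500–550 nm it was 0.14, -0.06, -0.02 and 0.07, and after 550–600 nm 0.15, -0.04, 0.04 and 0.07.

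No member passed an adjusted p under 0.05 at any fold in any 10 nm waveband. Over all transcripts 1 passed after 540–550 nm, or 0.00611%, and 0% after each of the other 4 wavebands. Unadjusted p-values under 0.05 were met by 3, 12, 11, 16 and 8 members in the 5 wavebands, taken from short to long, against 14.2%, 28.7%, 22.0%, 15.6% and 13.1% of all transcripts. In the same order DESeq2 called 0, 1, 3, 3 and 4 members, against 0.880%, 5.14%, 2.70%, 0.920% and 0.495% of all rows. After 500–510 nm both fish lay above both controls at 11 members and below at 48, against 29.5% and 32.5% of all transcripts. After 510–520 nm the counts were 58 and 13, against 28.9% and 29.5%. After 520–530 nm they were 19 and 16, against 27.9% and 29.3%. After 530–540 nm they were 9 and 69, against 30.5% and 34.6%. After 540–550 nm they were 13 and 30, against 28.4% and 30.9%. The medians were small, at -0.09, 0.16, -0.01, -0.15 and -0.07 in the same order of wavebands. After 510–520 nm the pair of fish differed 2-fold or more at 11 members and 19.4% of all transcripts, against 2 members and 2.12% for the 10 nm controls. Leaving out fish 2 brought 7 members past the 2-fold call, against 21.6% of all transcripts. With column totals in place of TMM, 35 members lay above both controls after 510–520 nm, 31 below after 500–510 nm and 16 above after 530–540 nm, against 23.7%, 28.3% and 36.7% of all transcripts.

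Among the members, 47 were linked in 1 block through pairs whose levels moved together. Chaining joins members through others, so 2 members of the block need not themselves reach a correlation of 0.9. On log2 CPM over the 28 libraries, 365 of the 4950 pairs of members had a Pearson correlation of at least 0.9, and chaining such pairs gave 1 block of 47 members, 5 blocks of 2 and 43 members with no such partner. These correlations are a description, since the libraries share experiments, depth and the members' own choice. Every member of the block of 47 had its highest CPM in FL fish 2, and the correlations were not taken without that fish. The block of 47 began at rank 11, so none of the first 10 was in it, and the highest over the lowest CPM of its members ran from 1.40 to 2.49. Its share of counts was 10.9% and 14.1% in the FL fish, against 10.3% and 9.48% in the 50 nm controls. It took 7.62% and 7.97% after 400–450 nm and 8.18% and 7.93% after 450–500 nm, below both of those controls. Its share stayed between 8.23% and 9.63% in the fish of the 10 nm wavebands, against 9.26% and 8.62% in the 10 nm controls. In the 4 shorter 50 nm wavebands the block held most of the members below both controls. After 500–550 nm 14 of the block and 13 of the other members lay below both, against 34.3% of all transcripts. After 550–600 nm these counts were 13 and 14, against 31.6%. The block's medians in these 2 wavebands were -0.008 and 0.001. All 47 had a negative log2 fold change after 400–450 nm, with a median of -0.35. All 20 members lower at an adjusted p under 0.05 in that waveband belonged to the block. By this rule 3.65% of all transcripts were lower there. The other 53 had a median of -0.11 there. After FL all 47 were positive, with a median of 0.55, and 46 lay above both controls, against 27.6% of all transcripts. After 510–520 nm all 47 were positive as well, with a median of 0.18 and 41 above both controls, against 28.9%. After 530–540 nm all 47 were negative, with a median of -0.15 and 42 below both controls, against 34.6%. As the block was defined from these same libraries, it was given no test of its own.

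**Figure D3:**
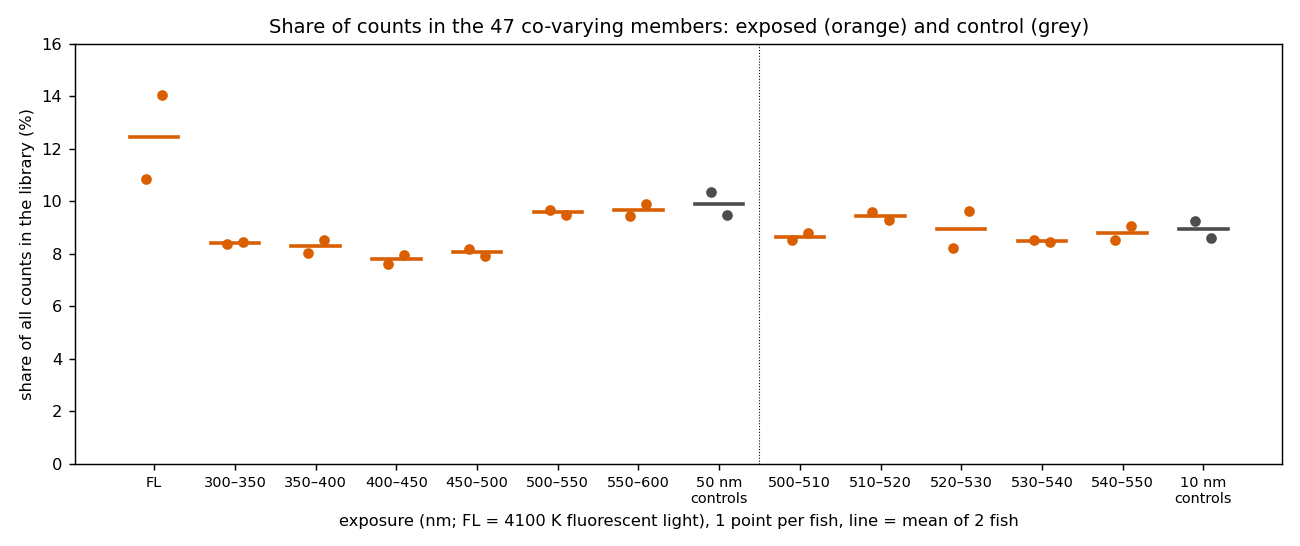
Share of all counts (%, y axis, from 0) taken by the 47 members linked by chained correlations. Each point is 1 fish and each line the mean of 2 fish, for exposed groups in orange and control groups in grey. The FL fish stand highest at 10.9% and 14.1%, and the fish after 300–350 to 450–500 nm lie between 7.62% and 8.54%, below both 50 nm controls.

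ENSXMAT00000008981, ENSXMAT00000015597 and ENSXMAT00000004911, all in this block, were the 3 members lower at an adjusted p under 0.05 in all 6 of the 50 nm wavebands. They are named after their values were seen, and no like count over all transcripts was taken. The calls rested on 2 fish a group, all against the same 2 controls, which helped to choose the members. In each of the 6 wavebands there was at least 1 library without which the calls of all 3 were lost. After 300–350 nm this held for each fish of that waveband and for each control. ENSXMAT00000008981 had 1971 and 1957 CPM after 300–350 nm, 1827 and 1989 after 350–400 nm, 1810.4 and 1805 after 400–450 nm, 1893 and 1879 after 450–500 nm, 2258 and 2193 after 500–550 nm and 2200.1 and 2298 after 550–600 nm, against 3177 and 3048 CPM in the 50 nm controls. All 12 exposed fish lay below both controls, and the 4 shorter wavebands lay below the 2 longer ones. Its log2 fold change ran from -0.81 (SE 0.10, edgeR adjusted p = 0.00702) after 400–450 nm to -0.45 (SE 0.10, edgeR adjusted p = 0.0204) after 550–600 nm. The FL fish had 3131 and 3911 CPM against the same controls, and 1 of these values lay between the controls. The 10 fish of the 10 nm wavebands had 1900.2 to 2167 CPM of this transcript, against 2093 and 1961 CPM in the 10 nm controls. The level of the 10 nm controls thus lay within the range of the exposed fish of the 50 nm experiment. ENSXMAT00000004911 showed the same order, with 923 and 939 CPM after 400–450 nm and 1201 and 1199 CPM after 550–600 nm. It had 1624 and 1564 CPM in the 50 nm controls and 974 and 938 CPM in the 10 nm controls. Both 10 nm control values lay under 1204 CPM, the mean control level of the last member. The 50 nm controls thus brought this transcript among the members, and lower values against them were favoured.

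ENSXMAT00000008241, rank 81, was the member called higher. It had 2140.2 and 1818 CPM after 500–550 nm, against 1036 and 832 CPM in the 50 nm controls, a log2 fold change of 1.11 (SE 0.15, edgeR adjusted p = 0.00288). Its log2 fold change was 0.96 without fish 1 of this waveband and 0.93 without control 2, both under 2-fold, with edgeR adjusted p-values of 0.0176 and 0.0319. After 550–600 nm it had 1729.8 and 1679 CPM and after FL 1545 and 1790.1 CPM, above the same controls. In the 4 shorter wavebands it lay between 1285 and 1487 CPM, and all 14 fish of the 50 nm wavebands and FL were above both controls. The order was the other way in the 10 nm experiment. There the exposed fish had 1287 to 1816 CPM, against 1917 and 1954 CPM in the 10 nm controls, and all 10 exposed fish were below both, with no adjusted p under 0.05. Both 10 nm controls lay far above the 50 nm controls, which were under 1204 CPM, the mean control level of the last member. The 10 nm controls thus brought ENSXMAT00000008241 among the members, and values below them were favoured.

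ENSXMAT00000012678, rank 8, was higher at an adjusted p under 0.05 in 4 of the 6 wavebands of 50 nm, and ENSXMAT00000008241 was the other member to do so. ENSXMAT00000012678 had 7167 and 6227 CPM after 500–550 nm and 6179 and 6537 CPM after 550–600 nm, against 4381 and 4095 CPM in the 50 nm controls. The log2 fold changes were 0.69 (SE 0.11, edgeR adjusted p = 0.00515) and 0.61 (SE 0.11, edgeR adjusted p = 0.00856). All 4 calls of ENSXMAT00000012678 were lost without control 2. ENSXMAT00000016361, rank 4, whose level followed it with a Pearson correlation of 0.91 over the 28 libraries, had 7571 and 7095 CPM after 500–550 nm and 7572 and 7654 CPM after 550–600 nm, against 5181 and 5327 CPM in the 50 nm controls. Neither passed the test in a 10 nm waveband, and ENSXMAT00000012678 had 5952 to 6848 CPM in exposed fish, against 6091 and 6143 CPM in the 10 nm controls.

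Whether members differed among the wavebands themselves was tested with no control in the contrast, by edgeR's quasi-likelihood F test over the exposed groups, a test chosen after seeing the data. In the 50 nm experiment 4 of 100 members passed an adjusted p under 0.05, against 4.35% of the 16722 transcripts, and 51 members had an unadjusted p under 0.05, against 19.3% of all transcripts. In the 10 nm experiment 0 members passed, as did 0% of 16366 transcripts, with 15 members and 7.85% of all transcripts at an unadjusted p under 0.05. DESeq2 was not run for this contrast. ENSXMAT00000004795, rank 41, had the widest difference. It had 3258 and 3123 CPM after 300–350 nm, 3299 and 3119.7 after 350–400 nm, 3882 and 3274 after 400–450 nm and 3736 and 3502 after 450–500 nm, then 1651 and 1152 after 500–550 nm and 1399.7 and 1279.6 after 550–600 nm, with 2612 and 2703 CPM in the 50 nm controls. The 8 fish of the 4 shorter wavebands lay above both controls and the 4 fish of the 2 longer ones below both. Against the controls its log2 fold change was -0.89 after 500–550 nm (SE 0.16, edgeR adjusted p = 0.00763) and -0.97 after 550–600 nm (SE 0.16, edgeR adjusted p = 0.00614). The call after 500–550 nm was lost without control 2, and that after 550–600 nm without fish 2 of the waveband. The 4 positive differences did not pass, with edgeR adjusted p-values between 0.109 and 0.430. The 10 nm wavebands divide the range from 500 to 550 nm, and there it had 1523 to 2236 CPM, against 1580.0 and 1758 CPM in the 10 nm controls, with no waveband below both.

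ENSXMAT00000012563, rank 74, had a like step. It had 3442 and 3314 CPM after 350–400 nm, 3096 and 3137 after 400–450 nm and 2854 and 3515 after 450–500 nm, against 1925 and 1697 CPM in the 50 nm controls, and passed with log2 fold changes of 0.95 (edgeR adjusted p = 0.00853), 0.75 (edgeR adjusted p = 0.0226) and 0.81 (edgeR adjusted p = 0.0163). Each of these calls against the controls was lost without control 2. After 500–550 nm ENSXMAT00000012563 had 2005 and 1774 CPM and after 550–600 nm 1508 and 1510.1 CPM. It had the largest positive value without overlap among the members after 530–540 and 540–550 nm, with 2040.5 and 1748 CPM and 1863 and 2122 CPM against 969.7 and 1422 CPM in the 10 nm controls, and passed in neither. ENSXMAT00000018211, rank 77, had 1524 to 1929 CPM in the 8 fish of the 4 shorter wavebands, 1141 and 912 CPM after 500–550 nm and 1068 and 837 CPM after 550–600 nm, with 1732 and 1689 CPM in the 50 nm controls. ENSXMAT00000000151, rank 24, went the other way, with 2346 to 2853 CPM in the shorter wavebands, 4248 and 4343 CPM after 500–550 nm and 3201 and 3581 CPM after 550–600 nm, against 2685 and 2209 CPM in the 50 nm controls. Its difference among wavebands passed with edgeR adjusted p = 0.0182 and did not pass without fish 1 or without fish 2 of 500–550 nm (edgeR adjusted p = 0.0983 and 0.0866). The FL fish had 4127 and 4933 CPM of ENSXMAT00000000151, a log2 fold change of 1.10 that did not pass (edgeR adjusted p = 0.196). In the 5 wavebands of 10 nm, which divide the range from 500 to 550 nm, its log2 fold change was negative. It lay between -0.34 and -0.15 there, and no waveband passed.

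**Figure D4:**
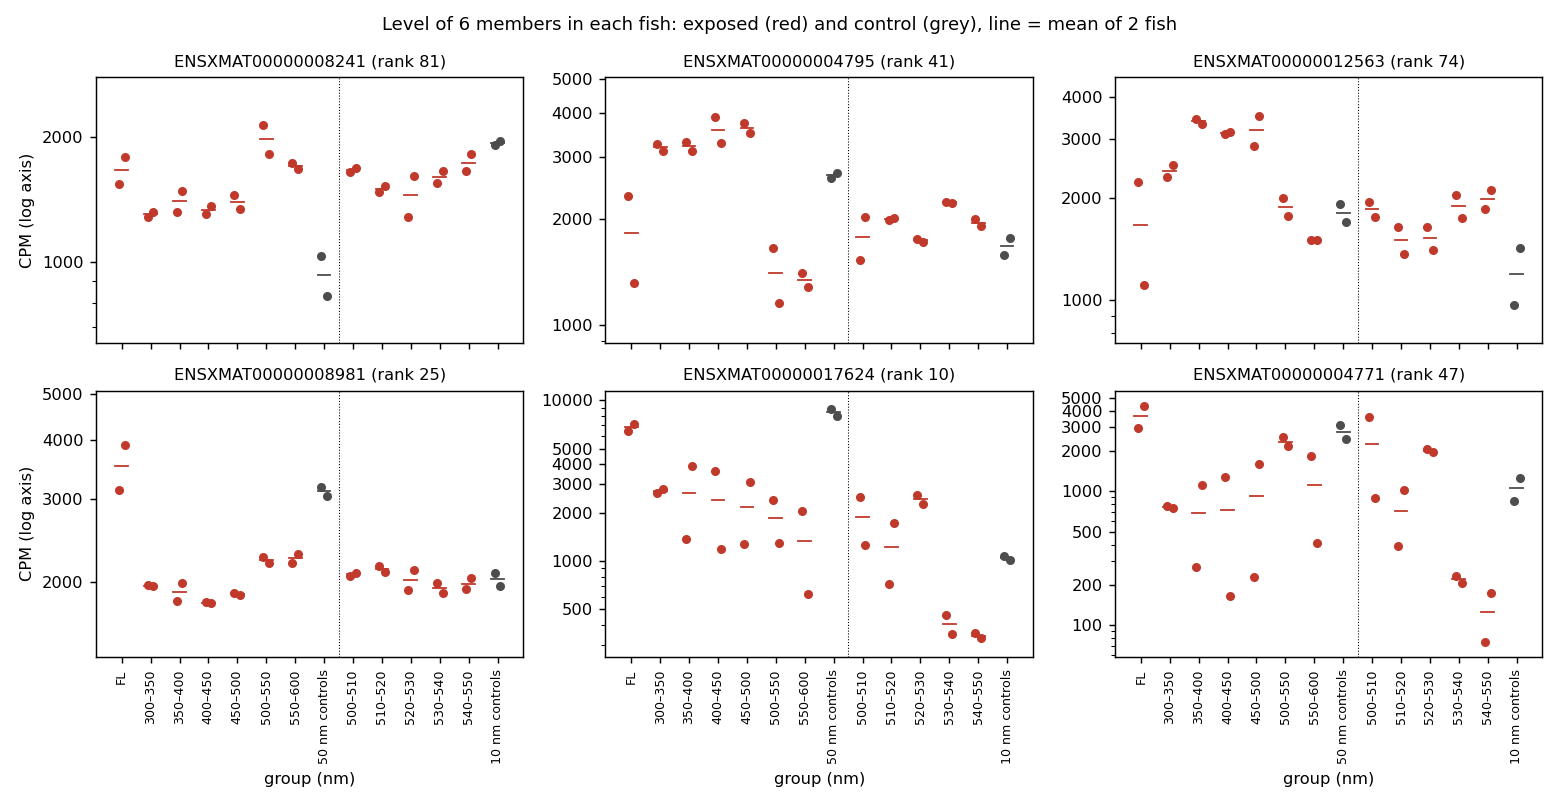
CPM on a log axis (y) of 6 members in each fish, with exposed groups in red, control groups in grey, a line at the mean of 2 fish and a dotted line between the experiments. ENSXMAT00000004795 and ENSXMAT00000012563 are higher in the 4 shorter 50 nm wavebands than in the 2 longer ones, and ENSXMAT00000017624 is highest in the 50 nm controls at 8835 and 8032 CPM.

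ENSXMAT00000017624, rank 10, and ENSXMAT00000000703, rank 12, followed each other with a Pearson correlation of 0.998 over the 28 libraries. Reads that map to near-identical transcripts could be split between them, and sequences were not used here to check this, so their separate values are uncertain. ENSXMAT00000017624 had 2650.0 and 2793 CPM after 300–350 nm, 1379.7 and 3893 after 350–400 nm, 3625 and 1197 after 400–450 nm, 1271 and 3095 after 450–500 nm, 2410.5 and 1304 after 500–550 nm and 2041 and 622 after 550–600 nm, against 8835 and 8032 CPM in the 50 nm controls. All 12 exposed fish were below both controls, but the pairs of fish lay far apart in every waveband except 300–350 nm. After 550–600 nm its log2 fold change was -2.65 (SE 0.74, edgeR adjusted p = 0.0400), and in the other 5 wavebands it was between -2.15 and -1.61 with edgeR adjusted p-values between 0.0725 and 0.215. ENSXMAT00000000703 had 1806 and 664 CPM after 550–600 nm, against 7038 and 6707 CPM in the 50 nm controls, a log2 fold change of -2.46 (SE 0.63, edgeR adjusted p = 0.0281). Both calls were lost without control 1 (edgeR adjusted p = 0.116 and 0.0881), without control 2 (0.128 and 0.108) and without fish 2 of the waveband (0.207 and 0.167), and neither transcript belongs to the rows chosen by the 10 nm controls alone. The FL fish had 6486 and 7174 CPM of ENSXMAT00000017624, below both of the same controls in CPM, with a log2 fold change of -0.09 after TMM scaling.

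In the 10 nm experiment ENSXMAT00000017624 had 2512 and 1255 CPM after 500–510 nm, 718 and 1728 after 510–520 nm, 2586 and 2259.7 after 520–530 nm, 461 and 351 after 530–540 nm and 358 and 329 after 540–550 nm, against 1072 and 1018 CPM in the 10 nm controls. Both fish were above the controls after 500–510 and 520–530 nm and below them after 530–540 and 540–550 nm, and no waveband passed, with edgeR adjusted p-values between 0.168 and 0.609. ENSXMAT00000004771, rank 47, varied as widely. It had 777 and 747 CPM after 300–350 nm, 271 and 1109.8 after 350–400 nm, 1274 and 166 after 400–450 nm and 229.9 and 1599 after 450–500 nm, against 3108 and 2454 CPM in the 50 nm controls. These 8 fish were below both controls, while the fish after 500–550 nm, at 2529 and 2167 CPM, overlapped them. For this transcript both 50 nm controls stood above both 10 nm controls. As control levels chose the members, lower values against the 50 nm controls were favoured. After 530–540 nm ENSXMAT00000004771 had 232 and 207 CPM and after 540–550 nm 75.6 and 174 CPM, against 844 and 1263 CPM in the 10 nm controls. Its log2 fold change of -3.11 after 540–550 nm (SE 0.69, edgeR adjusted p = 0.312) was the widest of any member in any exposure, and it did not pass in edgeR with all libraries of the experiment, while DESeq2 gave an adjusted p of 0.000730 and the fit of these groups alone gave edgeR adjusted p = 0.0175.

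The lower share of the members in the 10 nm wavebands was carried by the first ranks. ENSXMAT00000001064 had 33576 and 32689 CPM after 500–510 nm, 15811 and 37443 after 510–520 nm, 16697 and 39229 after 520–530 nm, 35486 and 35716 after 530–540 nm and 40057 and 36999 after 540–550 nm, against 50608 and 44899 CPM in the 10 nm controls. All 10 exposed fish were below both controls, and fish 1 of 510–520 nm and of 520–530 nm were the lowest. Its log2 fold change lay between -0.76 and -0.35, with edgeR adjusted p-values between 0.242 and 0.704, so it did not pass. In the 50 nm experiment the same transcript had 24400.3 to 39235 CPM in the 12 exposed fish, against 24746 and 22408 CPM in the 50 nm controls. There 11 of the 12 were above both controls, and no waveband passed, with edgeR adjusted p-values between 0.0675 and 0.436. ENSXMAT00000019098 had 6306 to 17906 CPM in the 10 nm wavebands, against 22998 and 21453 CPM in the 10 nm controls, again with all 10 exposed fish below both.

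ENSXMAT00000008688, rank 40, and ENSXMAT00000016925, rank 94, were also lower after the 10 nm wavebands, with a Pearson correlation of 0.95 to each other. The log2 fold change of ENSXMAT00000016925 lay between -1.09 and -0.53 there. In the 50 nm experiment it was 0.42 after 300–350 nm and 0.18 after 550–600 nm, and between -0.17 and -0.07 in the other wavebands. ENSXMAT00000008688 had 753 and 1881 CPM after 510–520 nm and 805 and 2045 CPM after 520–530 nm, against 3147 and 3255 CPM in the 10 nm controls, and 753 to 2244 CPM over the 10 exposed fish. In the 50 nm experiment it had 1855 and 2153 CPM after 300–350 nm, against 1329 and 936 CPM in the 50 nm controls. These opposite orders rest on the control levels, which took part in choosing the members. ENSXMAT00000008688 had the largest ratio of the 10 nm to the 50 nm control mean of any member, at 2.83, so no test of the difference between the experiments is given.

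**Figure D5:**
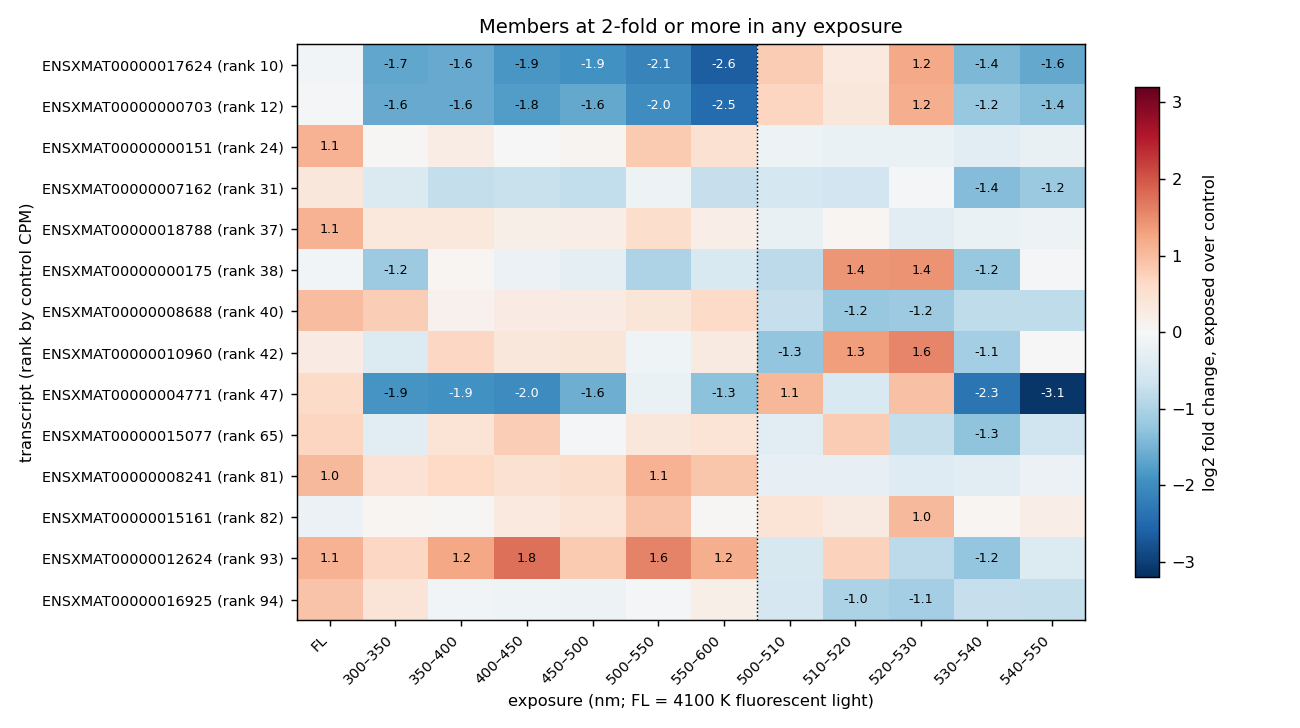
Log2 fold change, exposed over control (colour, red higher and blue lower), of the 14 members at 2-fold or more in at least 1 exposure, in rows by rank, with numbers printed where 2-fold was reached. ENSXMAT00000017624 and ENSXMAT00000000703 are blue in all 6 of the 50 nm wavebands, and ENSXMAT00000004771 reaches -3.11 after 540–550 nm.

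Several members had pairs of fish that differed too widely for a group value to be read. ENSXMAT00000000175 and ENSXMAT00000010960, with a Pearson correlation of 0.96, differed between the 10 nm controls themselves, with 1951 and 553 CPM of ENSXMAT00000000175 and 2820.5 and 621 CPM of ENSXMAT00000010960 in the 2 fish. After 520–530 nm ENSXMAT00000010960 had 4894 and 5369 CPM, and its log2 fold change of 1.57 (SE 0.59, edgeR adjusted p = 0.189) ran from 0.85 to 3.06 as single libraries were left out. ENSXMAT00000012624 had 1413 and 5239.9 CPM after 400–450 nm, against 1002 and 962 CPM in the 50 nm controls, and ENSXMAT00000015077 had 1282 and 4196 CPM against 1637 and 1529 CPM. The exposed fish in each pair were several times apart while the controls were close, and neither passed the test. ENSXMAT00000007162, rank 31, was steadier. It had 1105 and 962 CPM after 530–540 nm and 931 and 1364 CPM after 540–550 nm, against 2519 and 2595 CPM in the 10 nm controls, with log2 fold changes of -1.38 (SE 0.27, edgeR adjusted p = 0.272) and -1.19 (SE 0.27, edgeR adjusted p = 0.312). After FL the largest positive value without overlap was that of ENSXMAT00000018788, with 2893 and 3902 CPM against 2136 and 1533 CPM in the 50 nm controls and a log2 fold change of 1.11 (SE 0.36, edgeR adjusted p = 0.224). The largest negative one was that of ENSXMAT00000006304, with 924 and 705 CPM against 1409 and 1442 CPM and a log2 fold change of -0.61 (SE 0.22, edgeR adjusted p = 0.250).

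HSP90AB1, the chaperone and the only named member, ranked 69, and its row is listed as a coding sequence. It had 1224 and 1208 CPM after FL, 1152 and 1258 after 300–350 nm, 1171 and 1242 after 350–400 nm, 1225 and 1246 after 400–450 nm, 517 and 1257 after 450–500 nm, 697 and 1393 after 500–550 nm and 1282 and 360.0 after 550–600 nm, against 1049 and 976 CPM in the 50 nm controls. Fish 1 of 450–500 nm, fish 1 of 500–550 nm and fish 2 of 550–600 nm stood below both controls, and the other 11 exposed fish above both. No exposure of the 50 nm experiment passed, with log2 fold changes between -0.29 and 0.31 and edgeR adjusted p-values between 0.741 and 0.957, and the FL value was 0.47 (SE 0.23, edgeR adjusted p = 0.346). In the 10 nm experiment it had 1746 to 2446 CPM in exposed fish, against 2139 and 2108 CPM in the 10 nm controls, with log2 fold changes between -0.20 and 0.12. The level in the 10 nm experiment was thus about 2-fold that of the 50 nm experiment in exposed and control fish alike, and no effect of light on HSP90AB1 was detectable with 2 fish a group.

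The steadiest member over all 28 libraries, named after its values were seen, was ENSXMAT00000012075, rank 56. Its level lay between 1559 and 2007 CPM, a ratio of 1.29, with the lowest value after 400–450 nm and the highest in FL fish 2. ENSXMAT00000002573 and ENSXMAT00000012952 followed, with ratios of 1.31 and 1.33.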

How the data were processed

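RNA-Seq libraries were made from the skin of single fish with an mRNA kit and read as 125 bp pairs. Per the study's methods, the authors mapped reads with GSNAP to Ensembl *Xiphophorus* transcripts, counted them with a program given as xEpress and deposited raw read counts per transcript. Tool versions, and the setting by which reads mapping to several transcripts were assigned, are not given in the sources used here. The table has 32 count columns, of which 4 repeat the 50 nm controls, leaving 28 distinct libraries.

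The members and lists were chosen with earlier results of these data known. CPM and shares used column totals. Counts were tested with edgeR 4.0.16 in R 4.3.3 (filterByExpr, TMM, 1 term for group, glmQLFTest), with p-values adjusted by Benjamini-Hochberg over all transcripts tested. Fits held the 14 libraries of the 50 nm experiment (16722 transcripts), the 12 of the 10 nm experiment (16366) or FL with its controls (16513). The standard error was the log2 fold change over the square root of F. DESeq2 1.42.0, other scalings, no filter, the pair of groups alone, a replicate block, 50 or 200 rows, rows chosen by the controls of the other experiment and leaving out each replicate were alternatives. Shares were compared by exact permutation (scipy 1.17.1). The code was tested on simulated data. Nothing says whether the 2 fish of a group were exposed on separate occasions, so p-values measure only the spread between the fish sequenced. In edgeR this spread was estimated over all groups of a fit, with information shared across transcripts, and not from the 2 fish of a group alone.

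Members were named if they were among the 10 highest, showed the largest change in each direction in an exposure (called, or with both fish beyond both controls), or were named by the files or the paper. Others were named after their values were seen. No member identifier was matched in the gene table used, so no sequence is shown, and the cell type markers fixed for the tissue check could not be looked up. The authors' comparison with sham-treated fish was not used here.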

Additional observations from a re-analysis of the deposited data

Results flagged for a closer look

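Among the 6 wavebands of the 50 nm experiment, with no control in the contrast, 4 members differed by edgeR's quasi-likelihood F test at an adjusted p under 0.05, against 4.35% of all transcripts. ENSXMAT00000004795 differed by 1.41 on the log2 scale between its highest waveband (450–500 nm) and its lowest (550–600 nm), with edgeR adjusted p = 0.00190, and it passed without each of the 14 libraries in turn, with values from 1.36 to 1.67. ENSXMAT00000012563 differed by 1.20 between 350–400 nm and 550–600 nm (edgeR adjusted p = 0.00476) and ENSXMAT00000018211 by 0.96 between 400–450 nm and 550–600 nm (edgeR adjusted p = 0.0131), and both passed without each of the 14 libraries. ENSXMAT00000000151 differed by 0.82 between 500–550 nm and 400–450 nm (edgeR adjusted p = 0.0182) and passed in 12 of the 14, all but those without fish 1 or fish 2 of 500–550 nm. The range of the members' log2 levels over these wavebands had a median of 0.40, against 0.56 for all transcripts.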

How the results depend on the processing

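The count of members called at 2-fold, 0 in every exposure except 1 after 500–550 nm and 2 after 550–600 nm, changed as follows. DESeq2 called 3 after FL and 3 after 500–550 nm, and in the 10 nm experiment 1 (510–520 nm), 3 (520–530 nm), 3 (530–540 nm) and 4 (540–550 nm), where it called 3.04% and 4.89% of all rows and 5.14%, 2.70%, 0.920% and 0.495%. FL in 1 fit with the 50 nm libraries gave 2, against 1.32% of all transcripts. The pair of groups alone gave 3 (300–350 nm), 1 (350–400 nm), 4 (500–550 nm), 0 (550–600 nm), 6 (530–540 nm) and 4 (540–550 nm), against shares of all transcripts from 1.06% (300–350 nm) to 6.40% (530–540 nm). Column totals and the table without a filter each gave 2 after 500–550 nm, against 4.79% and 3.92%. With no fold minimum the counts were 8, 14, 21, 17, 14 and 17 over the 6 wavebands of 50 nm, from short to long. Over all 16722 transcripts they were 472, 1558, 1063, 1260, 2367 and 2251 in the same order. Rows chosen by the controls of the other experiment gave 1 after 300–350, 350–400 and 450–500 nm, 2 after 500–550 nm and 0 after 550–600 nm. The first 50 rows gave 0 after 500–550 nm, and the first 200 rows gave 2, 2, 1, 2, 7 and 6 from short to long. For all of these choices of rows, 0.975%, 3.27%, 2.06%, 2.73%, 4.69% and 4.42% of all transcripts were called, from short to long. Without single replicates the counts ran from 0 to 15 for FL, 0 to 7 for 510–520 nm, 0 to 6 for 550–600 nm, 0 to 2 for 500–550 nm and 0 to 1 for both 350–400 and 450–500 nm. The highest of these counts stood against 15.2%, 21.6%, 5.32%, 3.04%, 1.67% and 2.57% of all transcripts in the same fits. The replicate numbers join different fish. The difference of fish 1 from fish 2 had a mean correlation between groups of 0.0631 in the 50 nm experiment. In the 10 nm experiment it was over 0.1 for 8 of the 10 pairs of wavebands, up to 0.619, and between -0.0343 and 0.0977 for the 5 pairs with the controls, so the numbers were not taken to pair all groups. A replicate block gave 2 members after 510–520 nm, with 815 of 16366 transcripts (4.98%) against 0 without it, and changed no other members' count by over 1.5 times. The crossed block for FL gave 0 members, against 358 of 16513 transcripts (2.17%). The cause of these changes was not tested.

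Counts of members beyond both controls changed by over 1.5 times with column totals and with rows chosen by the other controls. With column totals 11 lay below after FL and 31 below after 500–510 nm, against 42.4% and 28.3% of all transcripts. In the same scaling 35 lay above after 510–520 nm and 16 above after 530–540 nm, against 23.7% and 36.7%. With rows chosen by the other controls 17 lay below after 550–600 nm and 10 below after 520–530 nm, against 31.6% and 29.3%. With those rows the share of counts differed from the controls by 0.940 points after 300–350 nm, -0.799 for 400–450 nm, -0.431 after 450–500 nm, 1.86 for 500–550 nm and 2.69 after 550–600 nm. Without single replicates the share difference ran from 2.10 to 6.06 points after FL, from -1.84 to 0.539 for 300–350 nm, from -2.38 to 0.00102 after 350–400 nm, from -3.68 to -1.30 for 400–450 nm, from -3.30 to -0.921 for 450–500 nm, from -1.20 to 1.17 for 500–550 nm and from -0.504 to 1.87 after 550–600 nm. In the 10 nm experiment it ran from -3.85 to -2.24 for 500–510 nm, from -5.43 to -1.08 for 510–520 nm, from -6.50 to 0.209 for 520–530 nm, from -4.57 to -2.96 for 530–540 nm and from -3.57 to -1.96 after 540–550 nm. In the test of the 50 nm experiment, 200 rows turned the difference to -0.0668 points. Of the alternatives for the log2 fold change of members chosen by the naming rule, 248 kept direction and side of the threshold, 12 newly passed, 6 no longer passed and 0 turned round. At these levels counting error was small. A contrast of the mean waveband effects of the experiments was also run and is not used, since it rests on the control levels that chose the members.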
